A study of Arabidopsis thaliana with 4 samples.

Results

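SAUR genes (SMALL AUXIN UP RNA) of Arabidopsis thaliana encode short plant-specific proteins, and many of them lie side by side in the genome. The 60 genes described here were chosen by locus code from a list of SAUR genes, with earlier results of these data known. All 60 had a row among the 27416 gene models measured. They were described in seedlings of the Col-0 accession that were either wild type (WT) or lacked normal phytochrome B (phyB), a photoreceptor that senses red light. They spent 4 days at 4°C and then grew for 4.5 days on half-strength MS medium with 1% sucrose. White light was given for 12 h, followed by 4 days in red light whose intensity was 60 μmol/m2/s. The labels name no phyB allele and list 2 samples per genotype, but the values consist of 1 column per genotype. No value therefore had a replicate check, no test between genotypes could be made, and the differences below are between these 2 columns. The word "reanalysis" stands in the titles of the WT samples only, so a difference in handling and the genotype cannot be told apart.

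SAUR transcripts are typically short-lived and quickly raised by auxin. Several SAUR proteins bind and inhibit type 2C phosphatases of clade D, which otherwise switch off plasma membrane proton pumps, so that the cell wall is acidified and the cell can extend. Phytochrome B in its active form lowers the activity of PIF transcription factors, bHLH proteins that bind E-box letters in promoters and raise many growth genes, SAUR genes among them.

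Gene models received 33521717 reads in WT and 33201394 in phyB. The SAUR genes took 0.0412% of the WT reads and 0.0503% of the phyB reads. Levels are given as RPKM, read counts scaled to coding length and column total, and differences as the log2 ratio of phyB over WT with an exact 95% counting interval. That interval covers counting error only, and not the variation between seedlings or cultures. PHYB itself was at 36.3 RPKM in WT and 14.1 RPKM in phyB. The 4 markers of green shoot tissue summed to 32637 RPKM in WT and 32031 RPKM in phyB, and 4 seed markers to 15.4 and 13.8 RPKM. Of the seed markers SESA1 was at least 2-fold higher in phyB (1.01) and EM1 at least 2-fold lower (-1.46). Of 4 root markers 2 were at least 2-fold lower in phyB, BGLU22 (-1.14) and MRN1 (-3.38), while PYK10 stood at -0.46 and CASP1 at 0.09. The root markers summed to 3675 RPKM in WT and 2692 RPKM in phyB, of which PYK10 made up 3280 and 2384 RPKM. No marker of the 3 tissues was at 0. The part of tissue make-up in the SAUR values was not tested. In whole seedlings fewer cells of a type and less RNA per cell cannot be told apart.

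Transcripts of the 60 chosen SAUR genes were more often higher than lower in phyB. Those at least 2-fold higher lay mostly in tandem clusters. Of the 60 genes, 55 had a mean of at least 1 RPKM over both columns. Of these 55, 43 had a log2 ratio above 0, 21 were at least 2-fold higher in phyB and 0 were at least 2-fold lower. Tandem clusters held 30 of the 55 genes, 27 of the 43 above 0 and 17 of the 21 at least 2-fold higher. Over the 19296 genes of the whole data set that reach this mean, ratios above 0 made up 49.0%, and 3.2% were 2-fold or more higher against 2.18% lower. The median log2 ratio was 0.69 for the SAUR genes and -0.01 for all genes. The counting interval lay wholly above 0 for 34 SAUR genes and wholly below 0 for 6, against 29.8% and 32.0% of all genes. For 12 SAUR genes it lay wholly beyond 2-fold higher, against 1.26% of all genes. SAUR3 passed the filter only through its level in phyB. With no filter 22 SAUR genes were at least 2-fold higher. Without the 7 genes that have a near-identical coding sequence elsewhere, 15 of 48 were at least 2-fold higher and the median was 0.65. These 48 still hold SAUR63, SAUR66 and SAUR67, of which some 50-base stretches occur more than once in the genome.

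SAUR coding sequences are short, and short genes were on the whole higher in phyB. The 2734 other nuclear genes within the length range of the SAUR genes, 261 to 570 nt, had a median log2 ratio of 0.22, of which 6.51% stood 2-fold or more higher and 3.0% lower. In that set 69.1% of the ratios were above 0, a share nearer to the 43 of 55 SAUR genes than that of all genes. Its counting intervals lay wholly above 0 in 47.2%, wholly below 0 in 16.0% and wholly beyond 2-fold higher in 1.98%. Among genes under 300 nt, 16 SAUR genes had a median of 1.39 against 0.37 for 869 other genes. From 300 to 450 nt the medians were 0.67 for 30 SAUR genes and 0.28 for 1215 others. From 450 to 600 nt they were -0.07 for 9 SAUR genes and 0.15 for 1562 others. The median of the longest SAUR genes was thus not raised, although SAUR53 (0.99) and SAUR52 (0.66) were higher in phyB. With the trend on coding length removed the SAUR median was 0.43, and 14 genes stood 2-fold or more higher and 2 lower, against 3.55% and 4.68% of the other nuclear genes of this length range under the same correction and 2.35% and 2.54% of all genes. The 2 lower genes are thus no larger a share than in that set. The signs of SAUR5, SAUR6, SAUR8, SAUR12, SAUR32 and SAUR35, all with counting intervals that hold 0, turned from above to below 0. Across the 55 genes the log2 ratio went down with coding length (Spearman's rho -0.49, Pearson's r -0.47, a description over genes of the same 2 columns).

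**Figure D1:**
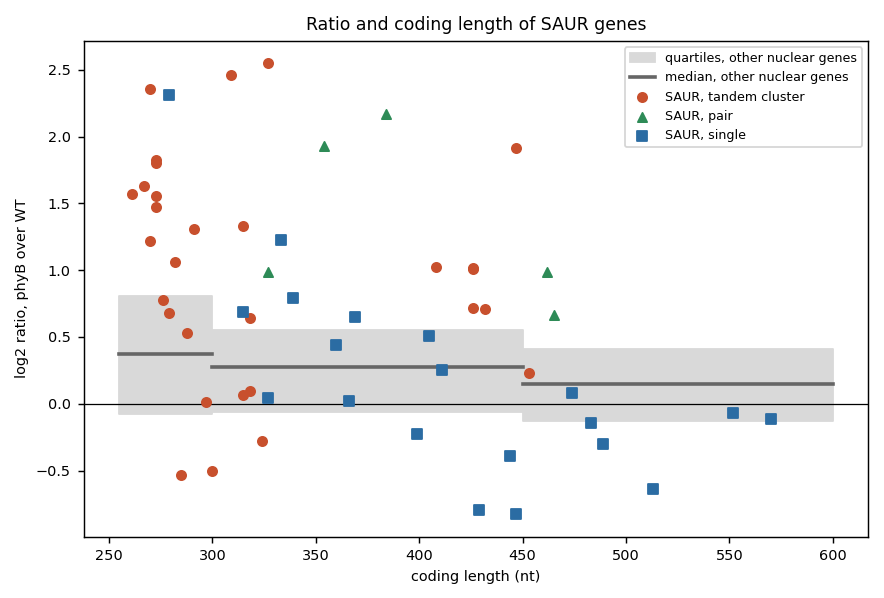
Log2 ratio of phyB over WT against coding length in nt for the 55 SAUR genes above the filter of 1 RPKM. Grey bars give the quartiles and the line the median of the other nuclear genes in 3 length classes; most SAUR genes under 300 nt lie above the grey band, whereas those above 450 nt lie in or below it, apart from SAUR53 and SAUR52.

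The 60 genes were divided by locus code into tandem clusters, runs of at least 3 SAUR genes whose codes are at most 30 apart. There were 6 such clusters with 32 genes, 3 pairs with 6 genes, and 22 single genes. In the tandem clusters 27 of 30 genes above the filter had a ratio above 0 and 17 were at least 2-fold higher, with a median of 1.02. Among the 25 pair and single genes above the filter, 16 had a ratio above 0 and 4 were at least 2-fold higher, with a median of 0.25. The pairs and the single genes differed from each other, with medians of 0.99 over 5 genes and 0.03 over 20 genes. With the length trend removed the medians were 0.79 in clusters, 0.79 in pairs and -0.23 in single genes. Genes of 1 cluster arose by duplication and are not independent of each other.

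**Figure D2:**
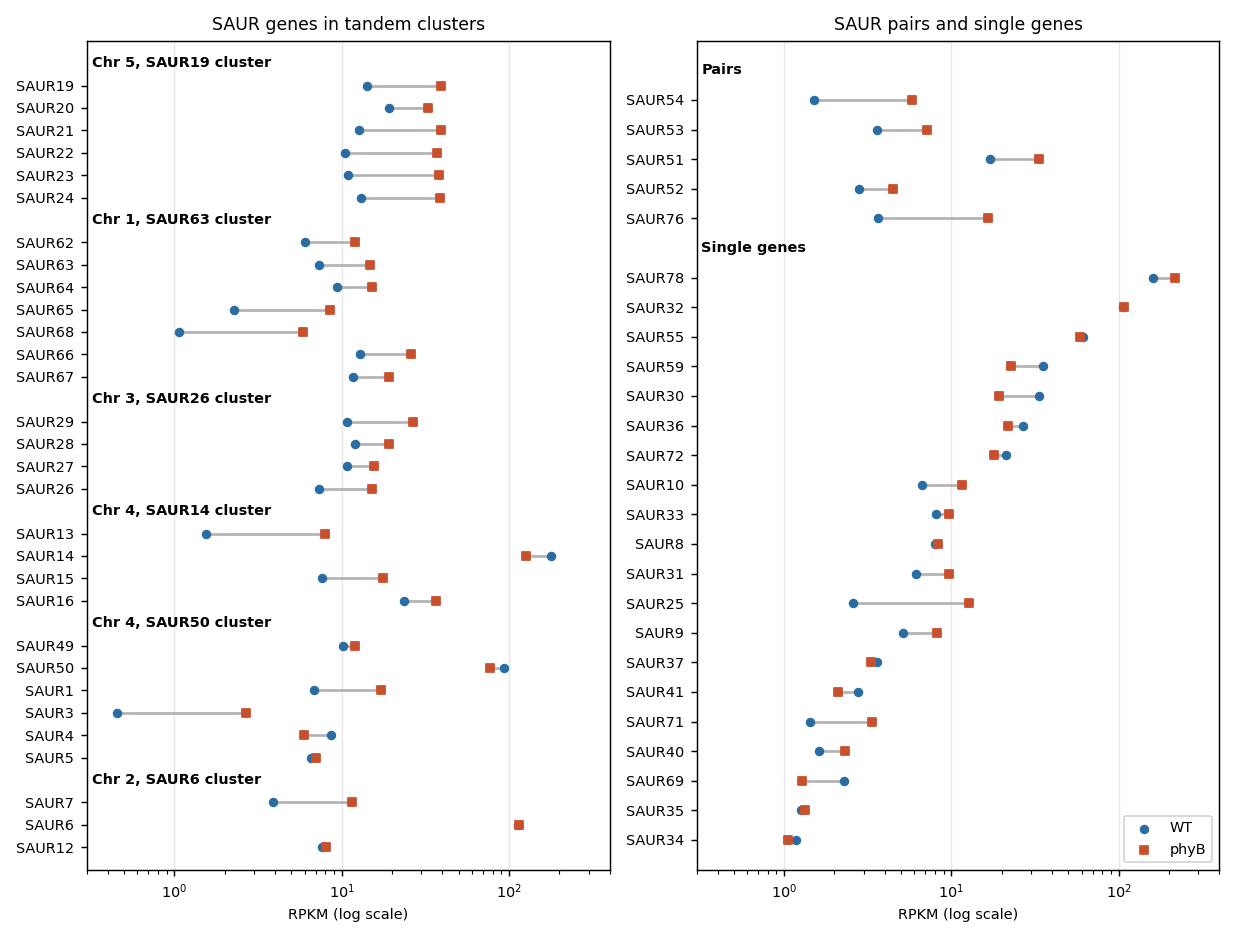
Level in RPKM (log axis) of each SAUR gene above the filter, in WT (circles) and phyB (squares), by tandem cluster on the left and for pairs and single genes on the right. All genes of the SAUR19, SAUR63 and SAUR26 clusters lie higher in phyB, while SAUR14 and SAUR50, the most abundant genes of the 2 chromosome 4 clusters, lie lower.

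The SAUR19 cluster on chromosome 5 (positions 5962773 to 5984308 of TAIR10.1) had the highest median, 1.59 over its 6 genes. Stabilised forms of these proteins are known to promote cell expansion in the hypocotyl. Each of the 6 coding sequences is near-identical to another of them, though not every pair of copies is. Their first 90 coding bases are printed to show how little separates the copies. Capitals stand at the bases in columns of the 6-gene alignment that are not the same in all copies:
SAUR19: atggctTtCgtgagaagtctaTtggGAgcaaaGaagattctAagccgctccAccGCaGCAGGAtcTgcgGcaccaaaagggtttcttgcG
SAUR20: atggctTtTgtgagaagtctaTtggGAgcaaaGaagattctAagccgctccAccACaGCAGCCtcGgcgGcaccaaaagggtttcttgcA
SAUR21: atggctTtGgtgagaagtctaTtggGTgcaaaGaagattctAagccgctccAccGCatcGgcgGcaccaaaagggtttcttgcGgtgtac
SAUR22: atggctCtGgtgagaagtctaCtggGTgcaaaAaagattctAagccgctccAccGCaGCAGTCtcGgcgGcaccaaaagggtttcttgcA
SAUR23: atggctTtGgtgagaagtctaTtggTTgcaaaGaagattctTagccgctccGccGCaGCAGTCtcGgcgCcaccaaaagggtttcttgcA
SAUR24: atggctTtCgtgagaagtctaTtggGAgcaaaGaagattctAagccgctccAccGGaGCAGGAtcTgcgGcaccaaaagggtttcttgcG

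Coding identity between copies ranged from 87.7% to 95.2%, and 53 of 276 alignment columns varied. The longest stretch shared letter for letter by 2 copies ranged from 30 to 86 nt over the 15 pairs. Every 50-base window of the SAUR20 and SAUR22 coding sequences occurs once in the genome, but only 67.4% of those of SAUR19, 83% of those of SAUR21, 85.7% of those of SAUR24 and 91.1% of those of SAUR23. How reads with several matches were treated is not stated in the sources used here, and reads can have been divided among these copies. Their sum does not depend on such a division within the cluster: it was 737 reads in WT and 2039 reads in phyB, a log2 ratio of 1.48 (95% counting interval 1.36 to 1.61).

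The ratios of single copies were close to that of this sum except for SAUR20 (AT5G18020). SAUR22 (AT5G18050) went from 10.5 RPKM in WT to 37.2 RPKM in phyB (log2 ratio 1.83, interval 1.49 to 2.17), and SAUR23 (AT5G18060) from 10.9 to 38.2 RPKM (1.80). SAUR21 (AT5G18030) was at 12.6 and 39.0 RPKM (1.63), SAUR24 (AT5G18080) at 13.1 and 38.6 RPKM (1.56) and SAUR19 (AT5G18010) at 14.2 and 39.5 RPKM (1.48). These 5 copies each reached at least 37.2 RPKM in phyB. SAUR20 was the highest copy in WT at 19.2 RPKM and the lowest in phyB at 33.0 RPKM. Its log2 ratio of 0.78 had an interval from 0.50 to 1.05, which does not overlap those of the other 5 copies. SAUR20 took 24.2% of the cluster's reads in WT (exact binomial interval 21.1% to 27.4%) and 14.8% in phyB (13.3% to 16.4%). SAUR20 is also the copy that departs most from the others, at 22 bases where it does not carry the most frequent letter, against 10 to 17 bases in the other copies.

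**Figure D3:**
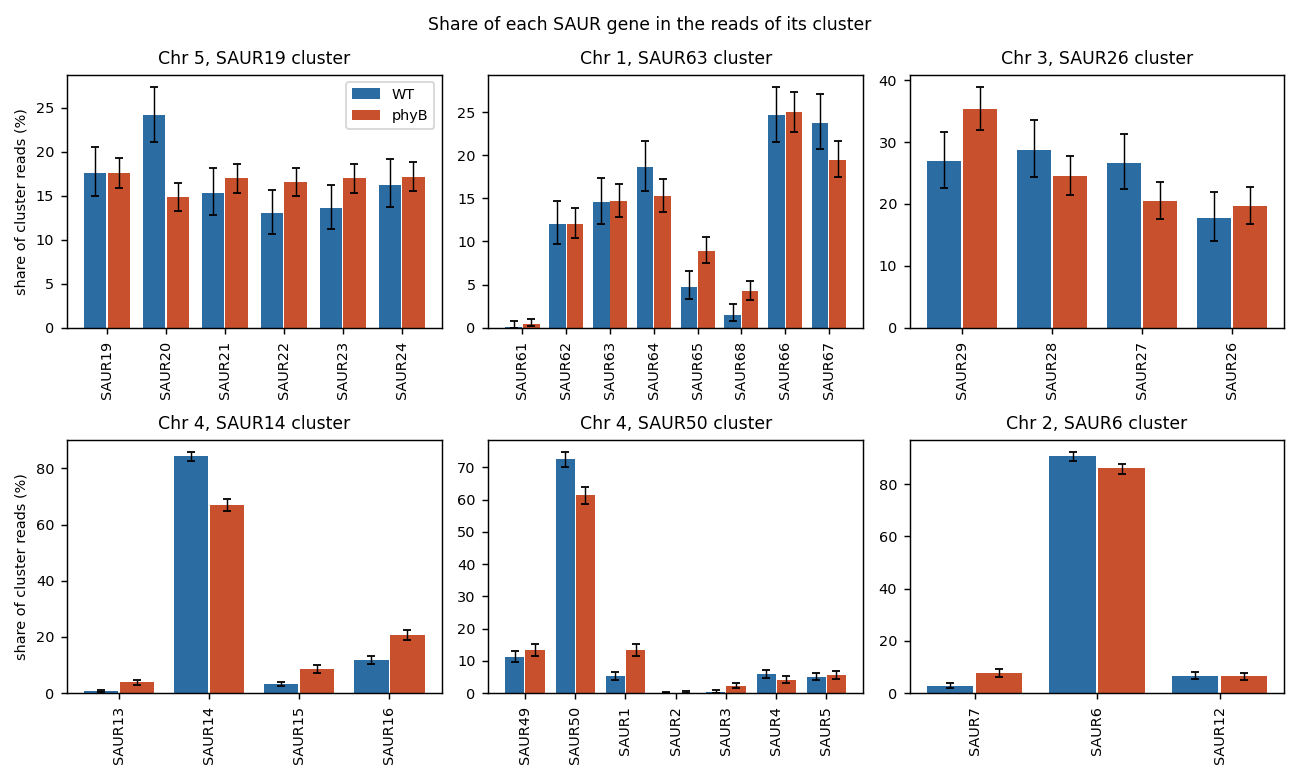
Share of each SAUR gene in the reads of its tandem cluster, in percent, in WT and phyB, with exact 95% binomial intervals that cover counting error only. SAUR20 takes a smaller share of its cluster in phyB, SAUR14 and SAUR50 take most of the reads of theirs in both columns, and SAUR6 takes 90.8% and 86.0% of the reads of its cluster.

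The SAUR63 cluster on chromosome 1 (positions 10301377 to 10323239) holds 8 genes, and its 7 measured genes were all higher in phyB, with a median of 1.01. SAUR63 proteins are known to promote elongation of hypocotyls and stamen filaments. The strongest differences were in its least abundant measured genes. SAUR68 (AT1G29490) went from 1.06 to 5.85 RPKM (log2 ratio 2.46, interval 1.52 to 3.54) and SAUR65 (AT1G29460) from 2.27 to 8.56 RPKM (1.92, interval 1.36 to 2.51). Close to 2-fold were SAUR66 (AT1G29500, 12.9 to 26.1 RPKM, 1.02), SAUR62 (AT1G29430, 6.02 to 12.1 RPKM, 1.01) and SAUR63 (AT1G29440, 7.28 to 14.7 RPKM, 1.01). SAUR64 (AT1G29450, 9.31 to 15.3 RPKM) and AT1G29510 (11.7 to 19.2 RPKM) had ratios of 0.71. AT1G29510 is called SAUR67 here, its synonym, because its RefSeq symbol is also a synonym of AT1G29490. With the length trend removed all 7 stayed above 0, but only SAUR68 (AT1G29490) and SAUR65 stayed at 2-fold. SAUR61 (AT1G29420) was below the filter with 1 read in WT and 7 in phyB, a log2 ratio of 2.82 whose interval reached from -0.14 to 8.32.

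The cluster sum was 715 reads in WT and 1419 in phyB (log2 ratio 1.00, interval 0.87 to 1.13). SAUR62 shares 97.0% of its coding sequence with SAUR75 (AT5G27780) on another chromosome, which had 29 reads in WT and 33 in phyB, so reads of SAUR62 and SAUR75 cannot be fully separated. Within the cluster, coding identity ranged from 56.9% to 89.3%. Of the 50-base windows, 70% of those of SAUR62, 86.9% of SAUR67, 87.5% of SAUR63 and 98.9% of SAUR66 occur once in the genome. SAUR63 and SAUR67 share a stretch of 91 nt letter for letter, so reads can also have been divided between them. SAUR63 and SAUR64 overlap AT1G29435 on the opposite strand, and SAUR61 overlaps AT1G06257. Whether counting used strand is not stated in the sources used here.

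All 4 chosen genes of the SAUR26 cluster on chromosome 3 (positions 976715 to 983768) were higher in phyB, with a median of 0.87. This subfamily has been linked to natural variation in growth at warm temperature. SAUR29 (AT3G03820) went from 10.8 to 26.6 RPKM (1.31, interval 0.97 to 1.65) and SAUR26 (AT3G03850) from 7.30 to 15.3 RPKM (1.07). SAUR28 (AT3G03830) stood at 12.0 and 19.2 RPKM (0.68) and SAUR27 (AT3G03840) at 10.8 and 15.6 RPKM (0.53). The 4 intervals lay above 0, and the ratios stayed above 0 with the length trend removed, where none reached 2-fold. Every 50-base window of these 4 coding sequences occurs once in the genome, although their coding identity ranged from 77.7% to 86.2%. A further SAUR gene whose code falls within this run, SAUR73 (AT3G03847), was not among the chosen genes and had 0 reads in WT and 1 in phyB.

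The SAUR14 cluster on chromosome 4 (positions 18121526 to 18131284) was divided. SAUR14 (AT4G38840), the most abundant SAUR gene in WT, was lower in phyB, whereas its 3 neighbours were higher. SAUR14 stood at 178 RPKM in WT and 126 RPKM in phyB (log2 ratio -0.50, interval -0.61 to -0.40). SAUR13 (AT4G38825) went from 1.55 to 7.92 RPKM (2.36, interval 1.52 to 3.30), and SAUR15 (AT4G38850, also SAUR-AC1, an early known auxin-induced SAUR of Arabidopsis) from 7.62 to 17.7 RPKM (1.22). SAUR16 (AT4G38860), linked to cotyledon opening in light, went from 23.5 to 36.7 RPKM (0.64). SAUR14 took 84.3% of the reads of the cluster in WT and 67.0% in phyB, so that the cluster sum was slightly lower in phyB (2124 and 1868 reads, log2 ratio -0.17) although the median of its genes was 0.93. SAUR13 overlaps AT4G38820 on the opposite strand, which was at 1.21 and 4.75 RPKM, and the reads of these 2 genes cannot be told apart without strand.

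The SAUR50 cluster, also on chromosome 4 (positions 16577180 to 16599568), held 2 lower genes, 2 higher genes and 2 whose intervals hold 0, and its median was 0.16 as deposited and -0.09 with the length trend removed. SAUR50 (AT4G34760), which like SAUR16 has been linked to cotyledon opening in light, was lower in phyB with 92.9 and 76.7 RPKM (-0.28, interval -0.41 to -0.14). SAUR4 (AT4G34800) was also lower, with 8.58 and 5.92 RPKM (-0.54, interval -1.05 to -0.03). SAUR1 (AT4G34770) was higher (6.82 to 17.1 RPKM, 1.33, interval 0.93 to 1.74), as was SAUR3 (AT4G34790), which had only 5 reads in WT and 29 in phyB (0.456 to 2.67 RPKM, 2.55, interval 1.16 to 4.28). SAUR49 (AT4G34750, 10.2 and 12.0 RPKM, 0.23) and SAUR5 (AT4G34810, 6.57 and 7.01 RPKM, 0.09) had intervals that hold 0. SAUR2 (AT4G34780) had 0 reads in WT, which allows up to 0.279 RPKM, and 2 reads in phyB. The sum of the cluster was 1393 reads in WT and 1345 in phyB (-0.04, interval -0.15 to 0.07).

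In the SAUR6 cluster on chromosome 2 (positions 9083906 to 9090052) SAUR7 was the gene whose counting interval did not hold 0. SAUR7 (AT2G21200) went from 3.89 to 11.5 RPKM (1.57, interval 1.00 to 2.18). SAUR6 (AT2G21210) stood at 113 and 115 RPKM (0.02, interval -0.11 to 0.14) and SAUR12 (AT2G21220) at 7.67 and 8.03 RPKM (0.07). The gene span of SAUR7 overlaps that of SAUR6 on the same strand and that of AT2G21195 on the opposite strand. The coding sequences of SAUR7 and SAUR6 share at most 11 nt letter for letter. The median of the cluster was 0.07 as deposited and -0.24 with the length trend removed.

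The genes around 4 of the clusters had medians well below those of the SAUR genes between them, but those around the SAUR50 and SAUR6 clusters did not. Taking 5 gene models on each side of a cluster, 46 of 60 passed the filter, with ratios from -1.59 to 0.93 and a median of 0.07, and of these 0 were 2-fold or more higher and 2 lower. Around the SAUR19, SAUR63, SAUR26 and SAUR14 clusters the medians were -0.09, -0.12, -0.20 and 0.01. Around the SAUR6 cluster the median was 0.05, near the 0.07 of its SAUR genes, and around the SAUR50 cluster it was 0.36, above the 0.16 of its SAUR genes. AT1G29418, beside the SAUR63 cluster, stood at 0.93, above SAUR64 and SAUR67. Between the SAUR19 copies lie AT5G18040 (0.31), AT5G18065 (0.69) and DRT101 (0.17), all with ratios below those of the copies around them. In the SAUR63 cluster the interspersed genes AT1G29465 and AT1G29470 stood at 0.66 and -0.02. AT4G38820, the gene that overlaps SAUR13, stood at 1.97.

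**Figure D4:**
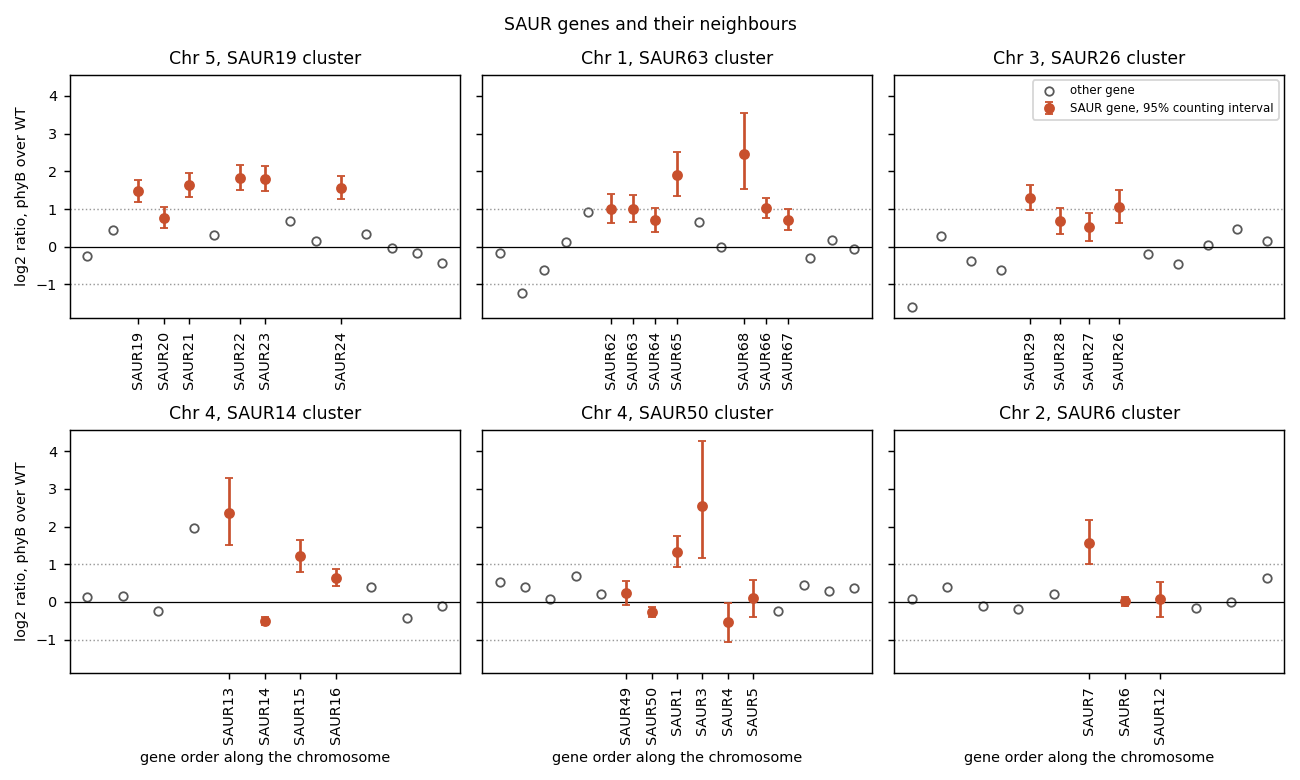
Log2 ratio of phyB over WT along the 6 tandem clusters, in gene order. Filled points are SAUR genes with 95% counting intervals, open points other genes inside the cluster and up to 5 on each side above the filter, and dotted lines mark 2-fold. All SAUR genes shown lie above 0 in the SAUR19, SAUR63 and SAUR26 clusters, while in the chromosome 4 clusters SAUR genes lie on both sides of 0.

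Among the pairs, SAUR76 (AT5G20820) was the gene with the largest difference. It went from 3.65 to 16.5 RPKM (log2 ratio 2.17, interval 1.71 to 2.66), while its neighbour SAUR70 (AT5G20810) had 17 reads in each column and was below the filter. SAUR76, SAUR77 and SAUR78 proteins have been linked to ethylene receptors. SAUR54 (AT1G19830) went from 1.52 to 5.79 RPKM (1.93, interval 1.17 to 2.77), and SAUR53 (AT1G19840), 19.3 kb away, from 3.62 to 7.17 RPKM (0.99). SAUR51 (AT1G75580) was at 17.0 and 33.6 RPKM (0.99) and SAUR52 (AT1G75590) at 2.82 and 4.47 RPKM (0.66), both with intervals above 0.

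The single genes were mixed. Of 20 above the filter, 11 had a ratio above 0 and 9 below 0. SAUR25 (AT4G13790) was the highest, from 2.57 to 12.7 RPKM (2.31, interval 1.67 to 3.01), and SAUR71 (AT1G56150) went from 1.43 to 3.35 RPKM (1.22, interval 0.34 to 2.17). The most abundant single gene, SAUR78 (AT1G72430), was at 161 RPKM in WT and 218 RPKM in phyB (0.44, interval 0.36 to 0.53). SAUR32 (AT2G46690), linked to the apical hook, stood at 106 and 108 RPKM (0.02) and SAUR55 (AT5G50760) at 61.6 and 58.7 RPKM (-0.07), with intervals that hold 0.

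Lower levels in phyB were found in 3 abundant single genes. SAUR30 (AT5G53590) stood at 33.4 RPKM in WT but 19.2 RPKM in phyB (-0.80, interval -1.01 to -0.58). SAUR59 (AT3G60690) had 35.2 and 22.7 RPKM (-0.64, interval -0.82 to -0.45). SAUR36 (AT2G45210), a gene of leaf senescence named after its values were seen, had 26.8 and 21.7 RPKM (-0.30, interval -0.51 to -0.10). With the length trend removed SAUR30 stood at -1.01 and SAUR69 (AT5G10990, 2.27 to 1.28 RPKM, 34 and 19 reads) at -1.03. Among genes below the filter, SAUR38 (AT2G24400) had 11 and 6 reads, and SAUR39 (AT3G43120) had 0 reads in both columns, which allows up to 0.185 RPKM in WT and 0.187 RPKM in phyB. The other 11 single genes above the filter had ratios from -0.39 to 0.79.

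The most abundant SAUR genes differed by less than 2-fold. Those whose mean reached 50 RPKM, 6 in number (SAUR78, SAUR14, SAUR6, SAUR32, SAUR50 and SAUR55) had ratios from -0.50 to 0.44 with a median of -0.03, and none was 2-fold higher. They took 60.1% of the SAUR reads in WT and 49.1% in phyB. Among the 24 genes from 10 to 50 RPKM, 12 were at least 2-fold higher with a median of 1.00, and among the 25 genes from 1 to 10 RPKM, 9 were, with a median of 0.66. For all genes of these 3 levels the medians were 0.07, -0.04 and -0.02, and 2.68%, 1.76% and 4.99% were 2-fold or more higher. The total of all 60 SAUR genes was 13827 reads in WT and 16695 in phyB (log2 ratio 0.29, interval 0.25 to 0.32), close to the 0.24 of the summed reads of the other nuclear genes in the same length range.

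The promoter windows of the SAUR genes, 250 bases before to 50 after the RefSeq start in TAIR10.1, were searched on both strands for 4 motifs. CACATG, an E-box variant that PIF proteins can bind, occurred in 28 of 60 windows (46.7%), against 12.9% of 27443 windows of nuclear protein-coding genes. It was found in 23 of 32 windows in tandem clusters (71.9%) and in 5 of 28 others (17.9%). All 8 windows of the SAUR63 cluster and all 4 of the SAUR26 cluster held it, as did 3 of 4 in the SAUR14 cluster, 4 of 7 in the SAUR50 cluster, 3 of 6 in the SAUR19 cluster and 1 of 3 in the SAUR6 cluster. The G-box CACGTG occurred in 1 SAUR window, that of SAUR59, against 7.68% of all windows. The auxin response letters TGTCTC were in 9 SAUR windows (15%, against 14.2% of all) and TGTCGG in 2 (3.33%, against 5.12%). Promoters of tandem copies share ancestry and are not independent, and the last letters of CACATG or CACGTG can also be the first letters of TGTCTC or TGTCGG.

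The 250 bases before the start are printed for 4 genes with different ratios, with capitals marking any of the 4 motifs. These 4 are examples and do not stand for the other genes. SAUR6, at a ratio of 0.02, also holds CACATG 3 times in its window, and SAUR76 (2.17) and SAUR54 (1.93) hold none of the 4 motifs. SAUR68 and SAUR13, both strongly higher in phyB, hold CACATG or its reverse complement 3 times, SAUR50, lower in phyB, holds none of the 4 motifs, and SAUR59, also lower, holds the G-box in 2 places:
SAUR68 (chr1:10319482-10319731, plus strand): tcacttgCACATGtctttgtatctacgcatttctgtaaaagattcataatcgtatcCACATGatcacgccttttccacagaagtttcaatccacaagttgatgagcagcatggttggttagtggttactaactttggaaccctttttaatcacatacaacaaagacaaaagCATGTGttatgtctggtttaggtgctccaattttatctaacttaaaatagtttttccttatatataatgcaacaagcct
SAUR13 (chr4:18121276-18121525, plus strand): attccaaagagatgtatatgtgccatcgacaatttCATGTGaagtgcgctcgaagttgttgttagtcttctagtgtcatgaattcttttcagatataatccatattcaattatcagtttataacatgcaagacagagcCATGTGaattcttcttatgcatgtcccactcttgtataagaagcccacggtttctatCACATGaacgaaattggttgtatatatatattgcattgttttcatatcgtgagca
SAUR50 (chr4:16583076-16583325, minus strand): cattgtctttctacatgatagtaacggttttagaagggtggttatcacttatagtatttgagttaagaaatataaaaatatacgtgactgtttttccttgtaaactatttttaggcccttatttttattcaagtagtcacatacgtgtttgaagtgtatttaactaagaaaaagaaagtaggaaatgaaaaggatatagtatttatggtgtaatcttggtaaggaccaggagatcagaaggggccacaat
SAUR59 (chr3:22434614-22434863, plus strand): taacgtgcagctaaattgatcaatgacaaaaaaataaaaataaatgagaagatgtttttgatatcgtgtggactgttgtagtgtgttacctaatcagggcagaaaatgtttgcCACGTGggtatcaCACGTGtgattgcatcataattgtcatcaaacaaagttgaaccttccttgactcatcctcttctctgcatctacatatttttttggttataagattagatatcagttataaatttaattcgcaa

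SAUR genes with CACATG in the window had a median log2 ratio of 1.01 over 27 measured genes, with 15 at least 2-fold higher. Those without it had a median of 0.35 over 28 genes, with 6 at least 2-fold higher. The genes with the motif were shorter (median 309 against 391.5 nt), and with the length trend removed the medians were 0.79 and 0.10. Within tandem clusters the medians were 1.04 with the motif (22 genes) and 0.71 without (8 genes). SAUR23 and SAUR24 were at 1.80 and 1.56 without any of the 4 motifs in the window. SAUR14 and SAUR4, which hold CACATG, were lower in phyB. Over other nuclear genes of the same coding length the motif did not go with a higher ratio, with medians of 0.14 with it (361 genes) and 0.23 without it (2363 genes). Of those genes 6.09% with the motif and 6.56% without it were at least 2-fold higher. A match of letters is a description and not a site of binding.

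Genes that act around SAUR proteins mostly differed by less than 2-fold, apart from 3 PIF genes that were lower in phyB. None of the 9 clade D phosphatase genes differed 2-fold (median -0.07), with AT3G51370 the most abundant at 137 and 117 RPKM. Of 11 plasma membrane proton pump genes 8 passed the filter and none differed 2-fold (median -0.13), with AHA2 (AT4G30190) at 537 and 551 RPKM. None of the 6 auxin receptor genes (median -0.04) and none of the 5 activating auxin response factor genes (median -0.23) differed 2-fold. These genes are longer than SAUR genes, and with the length trend removed the medians were -0.07 for the phosphatases, 0.06 for the pumps, 0.06 for the receptors and -0.06 for the response factors. TIR1 was at 85.1 and 72.2 RPKM and ARF6 at 20.1 and 17.7 RPKM. Of 8 genes for PIF, BZR and HY5 factors 3 were at least 2-fold lower, namely PIF5 (-1.34), PIF4 (-1.25) and PIF7 (-1.14), and HY5 was the most abundant at 139 and 114 RPKM (-0.29). The median of these 8 genes was -0.26, or -0.35 with the length trend removed.

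A further 19 SAUR genes, taken from the reference annotation or a list of codes, are not among the 60, and 13 of them passed the filter. Of these, 7 had a ratio above 0 and 6 below 0. Among nuclear genes outside the 60 of 261 to 570 nt, the length range of the chosen genes, 69.1% were above 0. That set also holds these 13 genes, whose own lengths ran from 300 to 441 nt. Of the 13 genes, 3 were at least 2-fold higher, against 6.51% of that set, and none was 2-fold lower. The median log2 ratio was 0.20, near the 0.22 of that set, or -0.02 with the length trend removed. SAUR57 went from 10.6 to 28.6 RPKM (1.43, interval 1.12 to 1.75), SAUR77 from 108 to 237 reads (1.15), and SAUR17, which passed the filter only through phyB, had 6 reads in WT and 18 in phyB (1.60). The counting interval lay below 0 for 2 of them, SAUR11 (8.25 to 5.12 RPKM, -0.69) and SAUR46 (3.98 to 2.49 RPKM, -0.68).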

How the data were processed

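Oligo(dT)-selected mRNA of seedlings was sequenced, per the labels' protocols, and the genotype labels gave the groups. The authors deposited per genotype 1 column of reads per gene model, treated here as estimated counts because 0 reads are written as 0.5, and 1 column of RPKM; the 0.5 entries were set back to 0. Whether a column pools both samples is not stated in the sources used here, nor are the aligner, the counter and the use of strand or of reads with several matches. Per the submitters' processing notes the genome was TAIR10. RPKM values equal reads over coding length and column total, as recomputed, and the implied length matched the RefSeq coding sequence of TAIR10.1 for 59 of 60 SAUR genes, which gave names, positions and sequences.

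Ratios used no pseudocount; for a column at 0 the floor was 3 reads, and no ratio was given where both columns had 3 reads or fewer. Intervals are exact conditional (Clopper-Pearson) 95% intervals, which cover counting error only. PCR copies are not independent molecules, so even this error can be larger than the intervals show. The filter kept genes whose mean over both columns reached 1 RPKM. Near-identical means at least 90% identity over 80% of the length (BLAST 2.17.0); the SAUR19 copies were aligned with MAFFT 7.526. The length trend is a lowess curve (statsmodels 0.14.6, span 0.3) of log2 ratios against log2 coding lengths. Scaling factors came from edgeR 4.0.16, on the reads; its planned quasi-likelihood test could not be run with 1 column per genotype.

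The 60 genes, the lists and the motifs were chosen with earlier results of these data known. All cluster genes above the filter were named, and of pairs and single genes those at least 2-fold apart and the 6 of highest mean; other single genes, interspersed genes and genes below the filter were named after their values were seen. The ratio and its interval were tested on simulated counts that held counting error only (Poisson). The interval is built for such counts, so this checked the calculation and not its use on these data. Variation between samples, PCR copies and shared reads were not simulated.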

Additional observations from a re-analysis of the deposited data

How the results depend on the processing

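Against 21 of 55 SAUR genes at least 2-fold higher and 0 lower, an absolute log2 ratio of 1.5 left 12. A counting interval wholly beyond 2-fold also left 12, against 1.26% of all genes. Removal of the length trend gave 14 higher and 2 lower, against 2.35% and 2.54% of all genes. It moved the median of the SAUR19 cluster to 1.25, of the SAUR14 cluster to 0.61 and of the SAUR6 cluster to -0.24. The other settings gave 15 to 23 genes higher and 0 lower: TMM, RLE and upper-quartile factors, totals without organelle genes, pseudocounts of 1 and 0.1, no filter, a filter at 5 RPKM, near-identical copies summed, and genes without a near-identical copy or without an overlapping gene. The filter at 5 RPKM kept 43 SAUR genes, while 48 were left without near-identical copies and 48 without overlapping genes. The share of all genes was not computed at 1.5 or for these other settings, so their counts describe the SAUR genes only. With the length trend removed 6 genes and the medians of the SAUR6 and SAUR50 clusters turned from above to below 0. None of the genes at least 2-fold higher changed sign under a setting that was run. That outcome was set beforehand, since the length trend took at most 0.36 off these ratios and pseudocounts cannot change a sign. Summing the SAUR19 copies left 17 genes at least 2-fold higher. No paired analysis was possible because the files give 1 column per genotype, without replicate numbers. Leaving out a replicate and the DESeq2 test were not run for the same reason. Depth limits genes such as SAUR3, SAUR13 and SAUR68, which had 5, 14 and 11 reads in WT.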
